A study of Mus musculus with 4 samples.

Results

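The genes described here carry glucose into the cell, split it to pyruvate, and send the pyruvate on to lactate or hold it back from the mitochondrion. The list names 34 of them, most of them isozymes, that is, separate genes for the same chemical step. All probe sets with 1 gene symbol from this list in the platform's annotation were taken, which gave 72 probe sets of 33 genes among 45037 tested probe sets and 18193 genes. Pfkfb1 had no such probe set. Whole mouse embryos were taken at embryonic day 9.5. One group was Cop1-null. The control group, titled wild-type, held embryos that were +/+ or +/-, and the labels give no number of each. RNA of 6 embryos of each group was mixed into 1 pool, each pool was divided into 2 portions, and each portion was hybridised to 1 Affymetrix array.

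Glucose enters embryonic cells through GLUT transporters and is trapped by hexokinase. Phosphofructokinase sets the pace of the pathway and is driven by fructose 2,6-bisphosphate, which PFKFB enzymes make and TIGAR removes. Pyruvate is reduced to lactate by lactate dehydrogenase and leaves through monocarboxylate transporters, while pyruvate dehydrogenase kinases keep it out of the citric acid cycle. Many genes of this route are textbook targets of the hypoxia-inducible factors, and embryos at this stage live largely on glycolysis.

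The 4 arrays had median log2 expression between 6.03 and 6.10. Each group is 1 pool measured on 2 arrays. The p-values are set against the technical spread between portions, and there is no second pool of either genotype in these data. Cop1 itself gave 11.35 and 11.26 in controls against 9.67 and 9.77 in nulls, and fell 2.99-fold (limma, adjusted p = 0.000728). Whether its probes lie in the deleted sequence is not stated, so it checks the labels only in part. Because whole embryos were used, fewer cells of a type and less RNA per cell cannot be told apart.

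Genes of glucose transport, hexokinase, phosphofructokinase, aldolase and pyruvate dehydrogenase kinase rose in the null pool, led by Pfkp (7.62-fold), Pfkfb3 (4.38-fold), Aldoc (3.82-fold) and Slc2a3 (3.77-fold). Tigar and Bpgm fell. A rise or fall was called at an adjusted p under 0.05 (limma) together with a change of at least 1.5-fold, and each gene was represented by its brightest probe set. By that rule 15 of the 33 measured genes rose (45.5%), beside 3.58% of all genes. In the other direction 2 fell (6.06%), beside 8.06% of all genes. The median difference of the 33 genes was 0.51 log2 units, or 1.43-fold, and that of all genes was -0.02. Of the 16 genes without a call, 7 had an adjusted p under 0.05 and a change under 1.5-fold. Both null values lay above both control values in 25 genes and below them in 8. Such separation is common in this comparison: it occurred in 68.2% of all genes, upward in 28.9% and downward in 39.3%. With the arrays centred on the poly-A spikes, which shifts the median of all genes from -0.02 to -0.26, 11 of the 33 genes rose and 3 fell. In that fit 352 of all genes rose and 3215 fell, against 652 and 1467 as deposited.

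**Figure D1:**
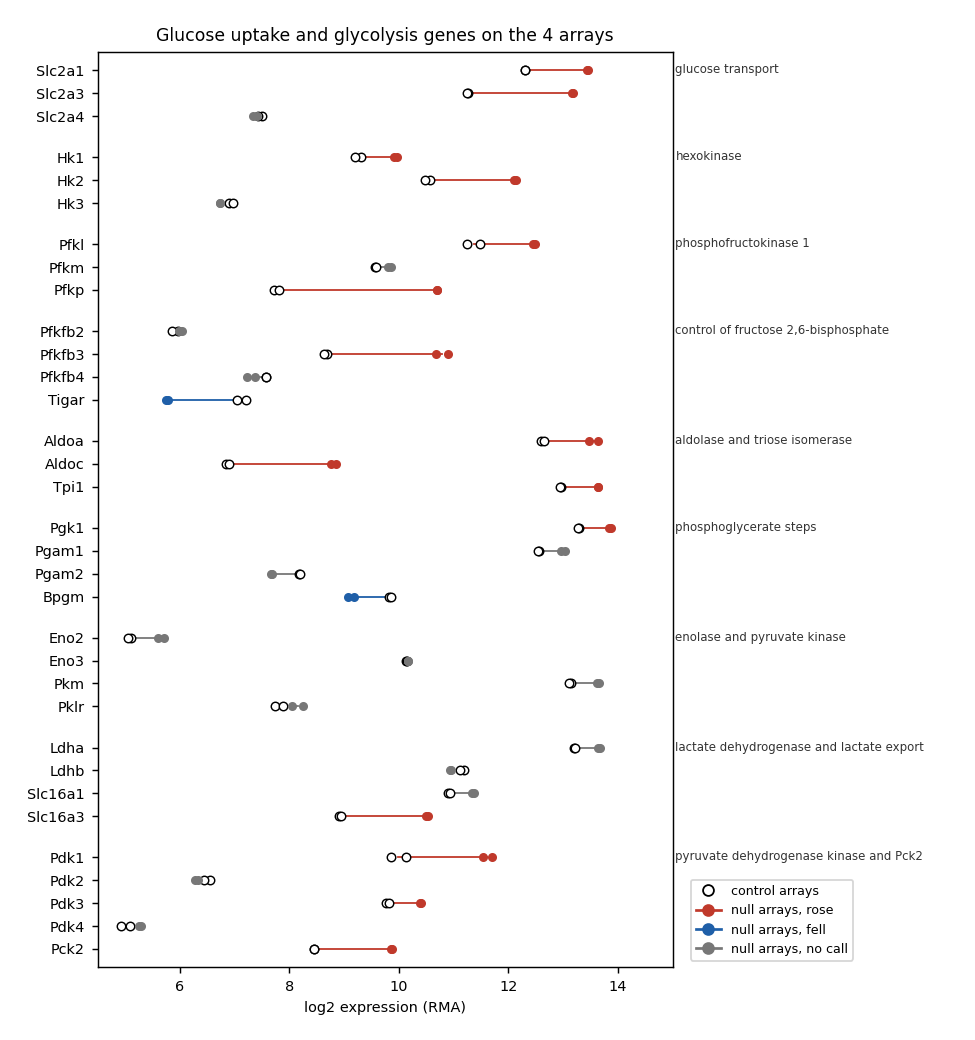
Log2 expression (RMA) of the 33 measured genes on each of the 4 arrays, by pathway step. Open circles are the 2 control arrays, filled circles the 2 null arrays, and lines join the group means; the 15 genes drawn in red rose and the 2 in blue, Tigar and Bpgm, fell.

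**Figure D2:**
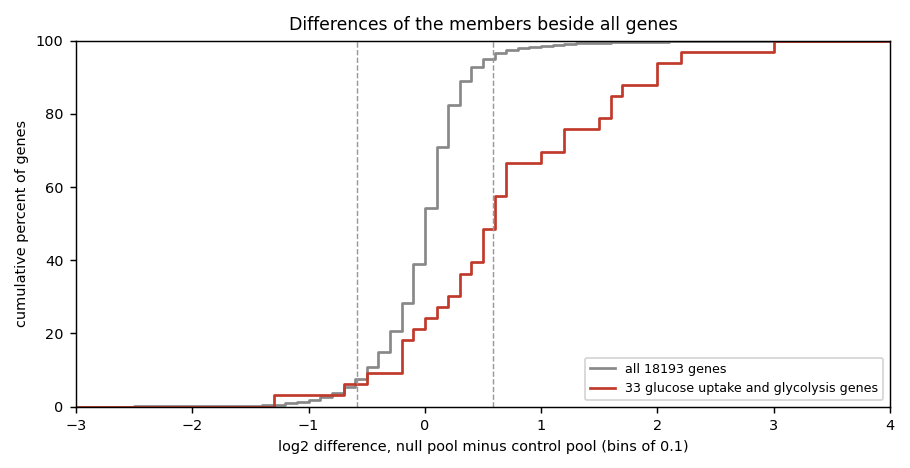
Cumulative percent of genes by log2 difference, null minus control, for all 18193 genes (grey) and the 33 measured glucose uptake and glycolysis genes (red); dashed lines mark 1.5-fold, and steps are 0.1 wide. The red curve lies to the right of the grey one over most of the range, with medians of 0.51 and -0.02.

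The start regions of these genes were read from RefSeq (GRCm38.p6), as 250 bases before to 50 bases after each annotated start, because many of the genes moved together. Both strands were searched for ACGTG and GCGTG, the core letters of the hypoxia response element. Every CACGTG, the E-box of bHLH factors, contains ACGTG on each strand, so such a site counts in both searches. Of 34 listed genes 32 had a promoter in the table, with 50 promoters in all. The 5 printed here are those of Pfkp, Pdk1 and Slc16a3, which rose furthest in their steps, of Ldha, which held the most matches and stayed under the fold limit, and of Bpgm, which fell. Hk2, Pfkfb3, Aldoc and Pgk1 also rose furthest in their steps and are not printed. Pdk1 and Ldha each had a further promoter that is not printed, with 0 and 2 cores. Capitals mark the cores as they read on the printed strand, so CACGT and CACGC are cores of the opposite strand.
Pfkp, GRCm38.p6 chr13:6648722-6649021, minus strand: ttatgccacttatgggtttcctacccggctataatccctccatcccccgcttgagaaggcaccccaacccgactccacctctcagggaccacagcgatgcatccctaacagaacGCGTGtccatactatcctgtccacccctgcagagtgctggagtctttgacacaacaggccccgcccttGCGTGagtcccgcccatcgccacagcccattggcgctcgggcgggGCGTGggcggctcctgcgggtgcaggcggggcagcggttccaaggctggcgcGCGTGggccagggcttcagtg
Pdk1, GRCm38.p6 chr2:71872974-71873273, plus strand: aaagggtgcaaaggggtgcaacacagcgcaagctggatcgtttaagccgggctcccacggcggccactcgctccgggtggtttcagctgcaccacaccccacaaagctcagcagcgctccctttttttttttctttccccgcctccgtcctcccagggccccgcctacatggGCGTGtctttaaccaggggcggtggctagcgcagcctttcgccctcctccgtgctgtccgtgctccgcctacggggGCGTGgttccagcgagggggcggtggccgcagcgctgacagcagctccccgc
Slc16a3, GRCm38.p6 chr11:120948817-120949116, plus strand: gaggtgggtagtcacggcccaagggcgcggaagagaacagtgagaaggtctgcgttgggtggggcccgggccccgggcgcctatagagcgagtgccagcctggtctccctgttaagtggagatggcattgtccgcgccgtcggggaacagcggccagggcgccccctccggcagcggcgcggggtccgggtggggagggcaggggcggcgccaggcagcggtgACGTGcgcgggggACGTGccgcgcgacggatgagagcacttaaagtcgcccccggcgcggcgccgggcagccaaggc
Ldha, GRCm38.p6 chr7:46845554-46845853, plus strand: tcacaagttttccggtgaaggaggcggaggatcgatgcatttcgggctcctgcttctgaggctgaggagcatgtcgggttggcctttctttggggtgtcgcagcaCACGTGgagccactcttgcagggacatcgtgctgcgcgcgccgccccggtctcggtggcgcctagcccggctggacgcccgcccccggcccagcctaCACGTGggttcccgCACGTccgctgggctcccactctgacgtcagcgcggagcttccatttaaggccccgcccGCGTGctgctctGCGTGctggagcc
Bpgm, GRCm38.p6 chr6:34476106-34476405, plus strand: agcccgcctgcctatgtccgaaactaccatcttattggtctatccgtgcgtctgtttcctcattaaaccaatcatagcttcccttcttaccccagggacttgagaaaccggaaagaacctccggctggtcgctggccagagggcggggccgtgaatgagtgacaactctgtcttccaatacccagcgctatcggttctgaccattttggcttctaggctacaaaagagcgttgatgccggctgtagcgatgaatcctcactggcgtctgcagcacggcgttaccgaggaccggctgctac

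A core stood in 34 of the 50 promoters (68.0%). The share was 43.8% over all 32851 promoters in the table and 54.6% over the 18110 promoters of genes on the array. ACGTG alone stood in 42.0% of the members' promoters, beside 19.6% of all promoters and 22.9% of those of array genes. The median G and C content was 57.5% in the members' promoters, 52.7% in all promoters and 58.3% in those of array genes. A core in at least 1 promoter was found for 13 of the 14 risen genes with a promoter, for 12 of the 15 genes without a call and for 0 of the 2 fallen genes. Counted by gene, the share was 46.7% over all genes in the table and 59.3% over those on the array. A count by gene grows with the number of promoters searched for each gene. The 14 risen genes had 20 promoters, and 14453 genes on the array had 18110. Promoters of the risen genes had a median G and C content of 64.0%, and the part of base composition in their matches was not tested. Among the printed sequences, Pfkp held 4 GCGTG cores and Pdk1 held 2, Slc16a3 held 2 ACGTG cores, Ldha held 7 matches on the 2 strands, and Bpgm held 0. The risen gene Tpi1 held 0 as well, and the uncalled Slc16a1 held 5. CACGTG stood in 6 of the 50 promoters (12.0%), beside 7.15% of all promoters and 8.72% of those of array genes. Of the 20 promoters of risen genes 1 held it, and of the 24 of genes without a call 5 did. These matches describe letters and not binding.

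Glucose transporters rose in 2 of 3 cases. Slc2a3 encodes GLUT3, a transporter of high affinity known from neurons and the early embryo. Its brightest probe set read 11.27 and 11.25 in controls against 13.19 and 13.16 in nulls, a gap many times the distance between portions. The rise was 1.91 log2 units (SE 0.06), or 3.77-fold, with an adjusted p of 0.000549 (limma). Its other 3 probe sets rose by 2.34, 2.83 and 2.84. Slc2a1, the gene of the widespread transporter GLUT1, rose 2.21-fold, from 12.30 on both control arrays to 13.44 and 13.45, and all 3 of its probe sets rose, by 1.15 to 1.59. Slc2a4, the insulin-responsive transporter gene of muscle and fat, read 7.51 and 7.43 in controls against 7.34 and 7.41 in nulls, with a second probe set at -0.02. The difference of -0.09 had a 95% interval from -0.27 to 0.09, which leaves out a rise of the size seen for Slc2a1 or Slc2a3. The endothelial markers were higher in the null pool beside these transporters. Of 6 such genes 3 rose, Flt1, Kdr and Pecam1, and their summed level, the log2 of the sum of the linear values, was 10.32 to 10.37 in controls against 11.10 to 11.12 in nulls. Their part in the transporter values was not tested.

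Hexokinases trap glucose as glucose 6-phosphate, and 2 of the 3 measured genes rose. Hk2, the inducible form bound to mitochondria, read 10.57 and 10.48 in controls against 12.09 and 12.15 in nulls. It rose 3.02-fold (1.60 log2 units, SE 0.07, limma, adjusted p = 0.000665). Hk1, the form of most tissues, rose 1.61-fold on one probe set and by 0.73 log2 units on the other. Under poly-A spike centring Hk1 lay below the fold limit (0.45). Hk3, a form of blood cells, read 6.91 and 6.97 in controls against 6.73 and 6.73 in nulls, a difference of -0.21 without a call (adjusted p = 0.0657).

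The 3 phosphofructokinase genes encode the liver, muscle and platelet subunits of the same tetramer, and they differed widely among themselves. Pfkp, the platelet type, read 7.72 and 7.81 in controls against 10.69 in both nulls. The rise was 7.62-fold (2.93 log2 units, SE 0.07, limma, adjusted p = 0.000549), the sixth largest rise of all genes. Its other probe sets rose by 2.26 and 3.59. Pfkl, the liver type, started from a brighter probe set and rose 2.15-fold, from 11.36 ± 0.17 to 12.47 ± 0.03 (log2, SD, n = 2 portions). Pfkm, the muscle type, read 9.56 and 9.59 in controls against 9.80 and 9.86 in nulls. Its difference of 0.26 (95% interval 0.09 to 0.42) lies under the fold limit.

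Enzymes that set fructose 2,6-bisphosphate went both ways. Pfkfb3, whose enzyme mostly makes this activator, read 8.68 and 8.64 in controls against 10.90 and 10.68 in nulls. It rose 4.38-fold (2.13 log2 units, SE 0.09, limma, adjusted p = 0.00068), and its second probe set rose by 1.80. Pfkfb2, a heart and kidney form, had 4 probe sets with differences between 0.03 and 0.39 and no call. Under poly-A spike centring its sign turned (from 0.10 to -0.13). Pfkfb4, a form known to respond to low oxygen, read 7.58 and 7.57 in controls against 7.22 and 7.38 in nulls, a difference of -0.27 without a call (adjusted p = 0.0527). Tigar, a phosphatase gene and p53 target that lowers fructose 2,6-bisphosphate, fell. Its brightest probe set read 7.04 and 7.20 in controls against 5.78 and 5.75 in nulls, a fall of 2.56-fold (limma, adjusted p = 0.000973). The other probe sets of Tigar, with differences of -0.31 and -0.42, lay under the fold limit.

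Aldolase and triose phosphate isomerase, which cleave the hexose and interconvert its products, rose in 3 of 3 genes. Aldoc, the brain form of aldolase, read 6.85 and 6.90 in controls against 8.85 and 8.77 in nulls, a rise of 3.82-fold (limma, adjusted p = 0.000558). This call rests on 1 probe set whose ID ends in _a_at. The other probe set of Aldoc read between 3.40 and 3.83 with overlapping groups and a difference of 0.13 (adjusted p = 0.569). Aldoa, the muscle and general form, rose 1.90-fold, and its 5 probe sets rose by 0.77 to 1.22. Tpi1 rose 1.60-fold, from 12.95 ± 0.01 to 13.63 ± 0.01 (log2, SD, n = 2 portions), and fell short of the fold limit under poly-A spike centring (0.45). The markers of early neurons ran the other way from the brain isozymes. Of 8 such genes 7 fell, and their summed level was 12.97 to 13.01 in controls against 12.12 to 12.17 in nulls. Their part in the values of Aldoc and Eno2 was not tested.

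The phosphoglycerate steps divided. Pgk1, the first enzyme of the pathway that yields ATP, read 13.28 and 13.26 in controls against 13.87 and 13.84 in nulls. It rose 1.5-fold (0.59 log2 units, SE 0.06, limma, adjusted p = 0.00328), just past the limit. Of its other probe sets, one differed by 0.56 without a call. The other rose by 0.83 (limma, adjusted p = 0.0175), with an SD of 0.28 between null portions. The brightest probe set of Pgk1 fell short of the limit without control replicate 2 (0.58), without null replicate 1 (0.57), after a further quantile normalization (0.57) and with poly-A spike centring (0.35). Pgam1, the general phosphoglycerate mutase, differed by 0.45 and lay under the fold limit (adjusted p = 0.00789). Pgam2, the mutase of muscle, differed by -0.52 (adjusted p = 0.00456), also under the limit, and passed it under poly-A spike centring (-0.75). Bpgm makes 2,3-bisphosphoglycerate, which loosens the grip of haemoglobin on oxygen in red cells, and it fell. Its brightest probe set read 9.83 and 9.86 in controls against 9.08 and 9.18 in nulls, a fall of 1.64-fold (limma, adjusted p = 0.00267). The other 2 probe sets of Bpgm fell by 0.69 and 0.82. Primitive red cell markers showed 1 fall among 7, that of the transcription factor gene Klf1 (-0.79). Alas2, Epor and Gata1, at mean levels of 10.23, 8.28 and 7.71, differed by 0.07, 0.005 and -0.24 without a call. The summed level of the 7 markers was 16.04 on both control arrays and 15.98 to 15.99 on the null arrays. It is set by Hba-x, Hbb-y and Hbb-bh1, whose means of 14.34, 14.43 and 14.36 lie close to the highest values of the arrays (14.46 to 14.48), so little can be read from its near-constant level. Markers of the skeletal myotome fell in 2 of 5 cases, Myog (-1.49) and Myf5 (-0.72), with summed levels of 9.98 to 9.99 in controls against 9.57 to 9.63 in nulls. Heart muscle markers showed 1 rise and 1 fall among 8. The part of these cell types in the values of Bpgm and Pgam2 was not tested.

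Enolase and pyruvate kinase had no call among 4 measured genes. Eno2, the enolase of neurons, read 5.11 and 5.06 in controls against 5.60 and 5.72 in nulls. Its difference of 0.57 (adjusted p = 0.00557) lay just under the fold limit of 0.58 log2 units, and it passed without control replicate 1 (0.60) or null replicate 1 (0.63). Eno3, the muscle enolase, differed by 0.04 with a 95% interval from -0.12 to 0.19, and its sign turned under poly-A spike centring (-0.20). Pkm, the main pyruvate kinase gene of embryonic tissue, read 13.12 ± 0.02 and 13.63 ± 0.03 (log2, SD, n = 2 portions), a difference of 0.51. One of the brightest probe sets of the table is that of Pkm, at percentile 99.6 of all probe sets. Its splice forms cannot be told apart here. Pklr, the pyruvate kinase gene of liver and red cells, had 3 probe sets with differences of 0.34, -0.08 and -0.02 and no call. Liver and yolk sac endoderm markers fell in 3 of 6 cases, Alb, Ttr and Afp, and their summed level was 12.22 to 12.29 in controls against 11.27 in nulls. Their part in the values of Pklr and Pck2 was not tested.

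Lactate production and export differed by isoform. Ldha, the subunit that favours lactate formation, differed by 0.45 (SE 0.06, adjusted p = 0.00707), or 1.37-fold, under the limit. Ldhb, the subunit known from oxidative tissue, read 11.20 and 11.11 in controls against 10.95 and 10.94 in nulls. Its 4 probe sets differed by -0.30 to -0.21 without a call. Slc16a3 encodes MCT4, the exporter of strongly glycolytic cells. It read 8.91 and 8.94 in controls against 10.54 and 10.49 in nulls, and rose 3.01-fold (limma, adjusted p = 0.000633). Slc16a1, the gene of the more widespread MCT1, differed by 0.44 (adjusted p = 0.00755) and lay under the fold limit.

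Pyruvate dehydrogenase kinases block the entry of pyruvate into the citric acid cycle, and 2 of 4 rose. Pdk1 read 9.86 and 10.13 in controls against 11.70 and 11.53 in nulls. It rose 3.07-fold (1.62 log2 units, SE 0.12, limma, adjusted p = 0.00141), and its other 3 probe sets rose by 1.34, 1.82 and 3.93. Pdk3 rose 1.52-fold and fell short of the limit without control replicate 1 (0.58) and under poly-A spike centring (0.37). Pdk2 read 6.55 and 6.45 in controls against 6.33 and 6.27 in nulls, a difference of -0.19 without a call. Pdk4, a kinase known from fasting, differed by 0.26 (adjusted p = 0.0677). Pck2 makes phosphoenolpyruvate in the mitochondrion and is a known target of the amino acid response factor ATF4. It rose 2.66-fold, from 8.46 and 8.45 to 9.85 and 9.88, and both of its probe sets rose.

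For 9 pairs of isozymes, chosen after their values were seen, the log2 ratio of the 2 representative probe sets was taken on each array, as a description of the differences above and with no test. Pfkp over Pfkm shifted most, by 2.67 log2 units, from -1.81 ± 0.05 to 0.86 ± 0.04 (SD, n = 2 portions). Pfkfb3 over Pfkfb4 shifted by 2.41, Pfkp over Pfkl by 1.83, and Slc16a3 over Slc16a1 by 1.16. Pdk1 over Pdk3 shifted 2.02-fold, and in log2 units Aldoc over Aldoa shifted by 1.01, Hk2 over Hk1 by 0.91, Slc2a3 over Slc2a1 by 0.77 and Ldha over Ldhb by 0.66. Both the ratios and their shifts depend on the probe sets that stand for the genes. The other probe set of Aldoc differed by 0.13, less than any of the 5 probe sets of Aldoa, so the shift of Aldoc over Aldoa turns its sign with that choice. That probe set of Aldoc is dim, at percentile 10.6 of brightness, and its groups overlap, so the turned sign says little about Aldoc.

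Probe sets of a gene mostly told the same direction but not the same size. Of 72 probe sets 37 rose (51.4%), beside 6.76% of all tested probe sets, and 4 fell (5.56%), beside 6.96%. In 0 genes were probe sets called in opposite directions. Of 20 genes with several probe sets, 10 had all of them risen. In 7 of these 10 the brightest probe set had a smaller rise than the dimmest, and in 4 it had the smallest rise of all. Of the 10, Pdk1 had the widest range, from 1.34 on a probe set with a mean level of 10.02 to 3.93 on one with a mean level of 7.02. Among the 4 smallest rises, those of Pgk1 (0.59) and Tpi1 (0.68) came from probe sets at percentiles 99.6 and 99.5 of brightness, and those of Pdk3 (0.60) and Hk1 (0.69) from probe sets at 92.5 and 89.1. The uncalled Ldha and Pkm stood at percentile 99.6. The part of brightness in these differences was not tested.

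**Figure D3:**
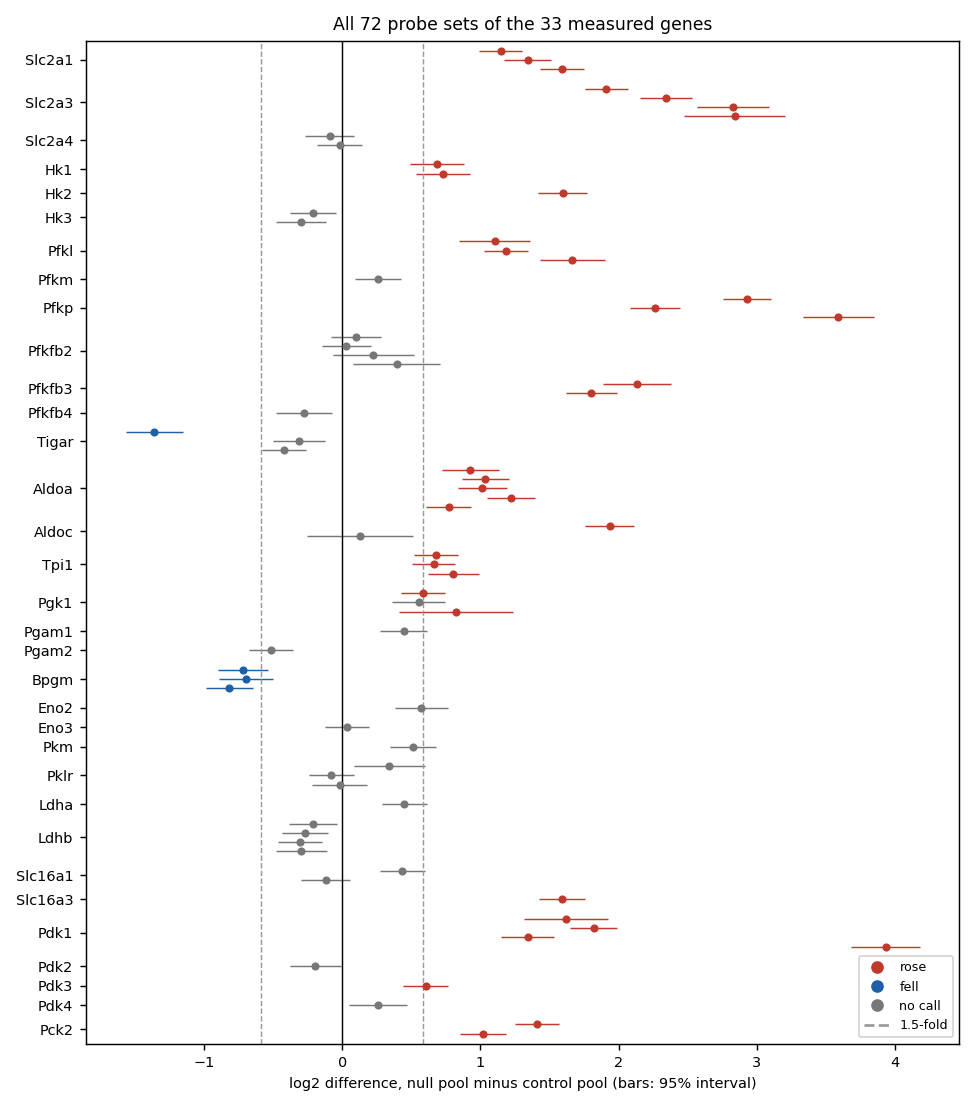
Log2 difference, null minus control, of each of the 72 probe sets with its 95% interval, grouped by gene and ordered by brightness within it; dashed lines mark 1.5-fold. Red points rose (37), blue points fell (4) and grey points have no call.

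**Figure D4:**
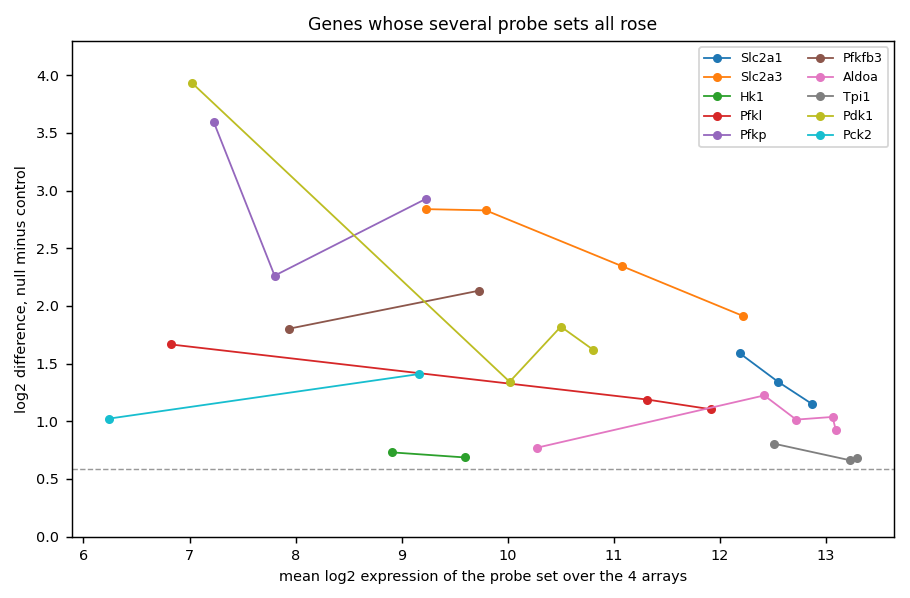
Log2 difference, null minus control, against mean log2 expression over the 4 arrays for the 10 genes whose several probe sets all rose, with lines joining probe sets of a gene. For Slc2a1, Slc2a3 and Pfkl the difference is smaller the brighter the probe set, while Pfkfb3 and Pck2 run the other way.

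Neighbouring pathways of glucose metabolism gave a mixed picture. Over 10 further lists, 98 genes were measured, of which 10 rose (10.2%, beside 3.58% of all genes) and 7 fell (7.14%, beside 8.06%), with a median of -0.04. Glycogen metabolism held 7 of the 10 rises, among 18 measured genes with a median of 0.35, and 1 fall. Ppp1r3c, which brings a phosphatase to glycogen and so activates its synthesis, rose 5.72-fold, from 8.37 ± 0.02 to 10.89 ± 0.08 (log2, SD, n = 2 portions). Pgm1, which links glycogen to glucose 6-phosphate, rose 3.21-fold, and the branching enzyme gene Gbe1 rose 2.74-fold. Monocarboxylate transport held 2 rises among 6 genes. These were Slc16a6, by 2.50 log2 units from 5.95 and 5.55 to 8.24 and 8.26, and Bsg, the chaperone of MCT1 and MCT4 at the cell surface, by 0.82. Bsg came to lie just under the fold limit with poly-A spike centring (0.58). Gluconeogenesis held 1 rise among 7 genes, that of the glucose 6-phosphate transporter gene Slc37a4 (0.90).

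In the lists for pyruvate entry and the steps after it, counts of calls were small and are read beside the 8.06% of all genes that fell and the 3.58% that rose. Of 9 measured genes of pyruvate entry 2 fell, Pdp1 (-0.83), the phosphatase that undoes the action of the pyruvate dehydrogenase kinases, and Pdhx (-0.77), a structural subunit of pyruvate dehydrogenase. The list's median was -0.17. The citric acid cycle held 1 fall among 15, that of Sdhb (-0.65), with a median of -0.23. In that list 1 of 4 probe sets rose for Dlst and for Sdha, and 2 of 4 fell for Idh3a, while the brightest probe set of each had no call (-0.23, -0.02 and -0.47). The NADH shuttles held 1 fall among 9, that of Gpd1l (-0.66), and the pentose phosphate pathway 1 among 7, that of Taldo1 (-0.63), with a median of -0.33. Glucose sensing held 1 fall among 5, that of Mlxip (-0.62), a partner of MLX in the transcriptional response to glucose, which lay under the fold limit after a further quantile normalization (-0.55). The hexosamine pathway had 0 calls among 7, with Ogt at 0.40 and Gnpnat1 at -0.31. Other hexose transporters and testis or liver isozymes of glycolysis gave 0 calls among 15 measured genes, with Ldhc at 0.41 and Slc2a9 at 0.36, and a median of 0.00.

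**Figure D5:**
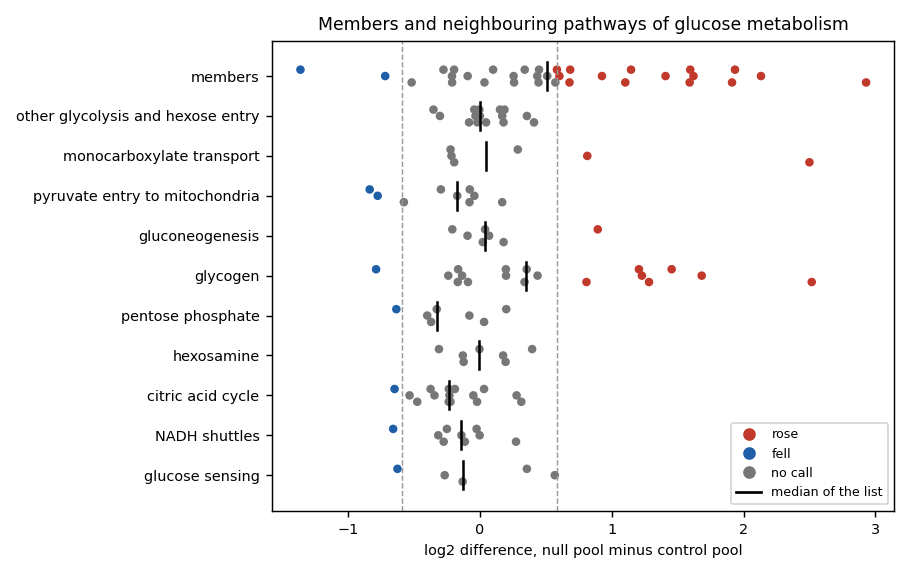
Log2 difference, null minus control, of the 33 measured glucose uptake and glycolysis genes (top) and of 98 genes of 10 neighbouring pathways; each point is a gene, red where it rose, blue where it fell and grey without a call, and black bars are medians. Rises outside the top row lie mostly in glycogen metabolism, where 7 of 18 genes rose.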

How the data were processed

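The authors deposited 1 table of log2 expression values for 4 Affymetrix arrays. The submitters' processing notes name RMA and affy, with versions and probe mapping not given in the sources used. RMA equalises the distribution of probe intensities between arrays, so differences in total RNA between embryos are not seen. Per the labels, 5 micrograms of total RNA were labelled for each array. Values were used as deposited. Of 45101 probe sets 64 Affymetrix controls were left out, and 34945 of the remaining 45037 had 1 gene, 932 several and 9160 none listed. The probe set with the highest mean stood for a gene.

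Differences, null minus control, were fitted by limma 3.58.1, run in R 4.3.3 (lmFit, eBayes, genotype as the only term) with Benjamini-Hochberg adjustment over all 45037 probe sets, and the fit was tested on simulated data. A call needed an adjusted p under 0.05 and at least 1.5-fold. Precision is limited by the number of arrays, and the comparison of genotypes by having 1 pool of each. The members and the lists were chosen with earlier results of these data known. Under the rule for naming genes every member is named, with array values for the largest rise and fall of each step and for fallen genes, and up to 3 called genes of each neighbouring pathway, or 2 uncalled ones. Marker lists were read by counts and summed level; the trophoblast and decidua list had 0 calls among 4 measured genes, with summed levels of 7.25 to 7.28 in the control and 7.13 to 7.15 in the null pool. Alternatives left out single arrays or probe set types, added the replicate number, or changed the scaling, the filter on dim probe sets, the eBayes prior, the representative probe set and the limits. Replicate numbers were not taken as pairs, since the labels name only portions of a pool.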

Additional observations from a re-analysis of the deposited data

Results flagged for a closer look

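A pair of enzymes of glucose metabolism are also measured by Affymetrix control probe sets, which the comparisons above leave out, and these 7 probe sets read higher on both null arrays than on both control arrays, as did 28.9% of all genes. The 3 probe sets of Gapdh, the glyceraldehyde 3-phosphate dehydrogenase of glycolysis, differed by 0.15 (3' part), 0.17 (5' part) and 0.15 (middle), null minus control. Gapdh read 13.97 to 14.19, close to the highest values of the arrays (14.46 to 14.48), so little can be read from the size of its differences. The 4 probe sets of pyruvate carboxylase differed by 0.28 (3' part), 0.21 (5' part), 0.20 and 0.32 (middle parts). The poly-A spike medians were 7.40 and 7.63 in controls against 7.67 and 7.83 in nulls, and their part in these differences was not tested. The 3' over 5' difference of Gapdh was between -0.0568 and 0.00316 on the 4 arrays.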

How the results depend on the processing

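Leaving out any 1 array left 1 array in that group, so only differences are given. The median of the members then lay between 0.49 and 0.54, and that of all genes between -0.04 and -0.02. Poly-A spike centring lowered the median to 0.28, gave 13 falls among the 98 genes of neighbouring pathways, and reversed the uncalled Pfkfb2 (-0.13) and Eno3 (-0.20). With that centring 3215 of all 18193 genes fell. Without probe sets whose IDs end in _s_at, _x_at or _a_at, 26 genes were left, 14 of their probe sets rose, and the median was 0.39. Of the 15 risen genes 11 kept their call, since Hk1, Aldoa and Tpi1 had no probe set left and Aldoc a dim one (0.13). In that fit 668 of all 16591 genes rose and 1390 fell. At an adjusted p alone the 15 risen and 2 fallen genes kept their call. Eno2, Ldha, Pfkm, Pgam1, Pkm and Slc16a1 also rose by that rule, and Pgam2 also fell. Of the members' probe sets 11 fell, given here without the count over all probe sets. Neighbouring pathways gave 21 rises and 21 falls among 98 genes. By the same rule 2192 of all 18193 genes rose and 3973 fell. At 2-fold 10 genes rose, beside 246 of all 18193 genes, and Hk1, Aldoa, Tpi1, Pgk1 and Pdk3 lost their call. At that limit 1 gene (Tigar) and 1 probe set fell, and 0 genes of neighbouring pathways, beside 315 of all 18193 genes. With ACGTG alone the promoter share was 42.0%. Same-numbered portions deviated together with r = 0.06 across probe sets. The replicate block gave 15 rises and 2 falls, beside 647 and 1455 over all genes, and changed no call of a named gene. The small number of arrays, all from 2 pools, limits every value.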

Other observations

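Probe sets disagreed for some genes of neighbouring pathways, and those named here were chosen after their values were seen. Of the 6 probe sets of Oga, which removes N-acetylglucosamine from proteins, 3 rose while the brightest had no call (0.20). For Arrdc4, a gene induced by glucose, 1 of 2 probe sets fell while the brightest differed by 0.57 without a call. Of the 5 probe sets of Ogt, which attaches N-acetylglucosamine to proteins, 1 rose although the brightest did not pass (0.40), and the mean of all 5 gave 0.59 (adjusted p = 0.00138, limma). Of the 4 probe sets of Gnpnat1, an enzyme gene of the same pathway, 1 fell although the brightest did not pass (-0.31). A single called probe set beside an uncalled brightest one was also found for Slc2a10, Phka1, Slc25a12 (each fallen) and Txnip (risen). Both probe sets of Ppp1r3c and of Pgm1 rose, and both of Pdp1 and of Gpd1l fell. Glycogen phosphorylases differed by isozyme, as Pygl, the liver form, rose by 1.23, Pygm, the muscle form, fell by 0.78, and Pygb, the brain form, differed by -0.17 without a call. The synthase gene Gys1, the phosphatase-targeting gene Ppp1r3b and the glycogen-binding protein gene Stbd1 rose by 1.28, 1.21 and 0.81.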
